A study of Mus musculus with 2 samples.

Results

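Androgen and oestrogen synthesis was followed through 4 genes, Cyp17a1, Insl3, Cyp19a1 and Hsd17b1, across 2 Slide-seq libraries of mouse ovary. The 4 genes were taken by name from the 22204 genes listed in at least 1 library. Slide-seq captures the mRNA of a tissue section on barcoded beads whose positions are known, so that each count has a place. The 2 libraries were 1 section of 10 µm from an old female (about 14 months, replicate 1) and 1 from a young female (2 months, replicate 3). Both mice were C57BL6/J, with no other genotype or treatment named. The authors placed 4 sections from 2 females per age on arrays and chose regions that showed several oocytes together; the other sections were not analysed here.

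Androgens and oestrogens are made in the follicle by neighbouring cell types that share the work. Theca cells, which wrap the follicle and respond to luteinizing hormone, turn cholesterol into androgens. Granulosa cells, which line the follicle and respond to follicle-stimulating hormone, turn those androgens into oestrogens. Cyp17a1 encodes the 17-alpha-hydroxylase and lyase that makes androgens, and Insl3 encodes a peptide hormone secreted by theca cells. Cyp19a1 encodes aromatase, the enzyme that forms oestrogens from androgens, and Hsd17b1 encodes the 17-beta-hydroxysteroid dehydrogenase that forms the more active oestradiol from oestrone.

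The old section held 2348768 counts on 10267 beads (median 125 counts per bead) and the young section 5158314 counts on 21403 beads (median 153). No barcode with counts was shared between the libraries. Levels are given as CPM, counts scaled to a common total of 1000000 per section or zone. Exact Poisson 95% intervals of levels and exact binomial 95% intervals of ratios are in parentheses and cover counting error only. With 1 library per age, an effect of age cannot be told apart from that of the animal, the plane of the section or the library, and no test between ages was made. Beads can take up RNA of several cells, and fewer cells of a type and less RNA per cell cannot be told apart. The ovary's defining markers were present: all 12 granulosa, 7 theca, 18 oocyte and 6 luteal marker genes, listed without the 4 genes, had counts in both sections. The granulosa list had 1230 CPM in the old section against 5920 CPM in the young one, the theca list 2489 against 8349 CPM, the oocyte list 304.8 against 3304 CPM and the luteal list 4370 against 2909 CPM.

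In the RefSeq annotation of GRCm38.p6, Cyp17a1 lies on chromosome 19 (46667165 to 46673000), Insl3 on chromosome 8 (71689252 to 71690577), Cyp19a1 on chromosome 9 (54165937 to 54268164) and Hsd17b1 on chromosome 11 (101077968 to 101081188). Insl3 lies within the annotated span of Jak3 (71676383 to 71690577 on chromosome 8), on the same strand and with the same end. Reads there could be assigned to either gene or dropped, and their handling by the authors is not stated here. Promoter windows of Insl3, a theca gene, and of Cyp19a1, a granulosa gene, are shown because all 4 genes were lower in the old section. Each is a RefSeq window of 300 bases around an annotated start. Capitals mark the searched motifs, CAAGGTC, contained in the sequence that the steroidogenic factor Nr5a1 is known to bind, and AGGTCA, the nuclear receptor core motif; each was searched on both strands, and both can overlap.
Insl3, chr8:71689002-71689301, plus strand: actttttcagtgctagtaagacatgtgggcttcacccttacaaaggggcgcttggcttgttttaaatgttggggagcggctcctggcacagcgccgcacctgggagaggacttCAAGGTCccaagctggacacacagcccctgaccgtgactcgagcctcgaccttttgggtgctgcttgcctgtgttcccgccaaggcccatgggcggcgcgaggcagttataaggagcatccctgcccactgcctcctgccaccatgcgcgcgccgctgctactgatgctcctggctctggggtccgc
Cyp19a1, chr9:54268115-54268414, minus strand: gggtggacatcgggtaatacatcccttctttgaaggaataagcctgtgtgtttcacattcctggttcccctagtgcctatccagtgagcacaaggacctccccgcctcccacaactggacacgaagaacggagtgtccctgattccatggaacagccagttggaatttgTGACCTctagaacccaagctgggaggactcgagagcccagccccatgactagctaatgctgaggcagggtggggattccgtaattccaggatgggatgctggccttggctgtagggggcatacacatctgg
The Insl3 window held CAAGGTC 1 time and AGGTCA 0 times. This Cyp19a1 window, at the most upstream of 3 annotated starts, held AGGTCA 1 time, here on the opposite strand, and CAAGGTC 0 times. The windows of the other 2 Cyp19a1 starts held neither. Which of the 3 starts was used in these sections was not measured, so the window shown may not be the one used in granulosa cells. Over 32851 windows of the same length, 3.96% held CAAGGTC and 16.3% held AGGTCA. Cyp17a1 and Hsd17b1 had no window in the table.

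All 4 genes were lower in the old section. Cyp17a1 had 7 counts in the old section against 685 in the young one, or 2.98 CPM (1.20 to 6.14) against 132.8 CPM (123.0 to 143.1). The old over young ratio was 0.0224 (0.00899 to 0.0465), which is 44.6-fold lower. Cyp19a1 had 4 counts in the old section against 428 in the young one, or 1.70 CPM (0.464 to 4.36) against 82.97 CPM (75.3 to 91.2). Its ratio was 0.0205 (0.00557 to 0.0529), or 48.7-fold lower, and could not be told from that of Cyp17a1 within counting error. Hsd17b1 had 63 counts in the old section against 928 in the young one. That made 26.8 CPM (20.6 to 34.3) against 179.9 CPM (168.5 to 191.9), a ratio of 0.149 (0.114 to 0.193) or 6.71-fold lower. The interval of Hsd17b1 lay wholly above those of Cyp17a1 and Cyp19a1, so its deficit in the old library was the smaller one. Insl3 had 1 count in the old section against 17 in the young one, a ratio of 0.129 (0.00309 to 0.824). This rests on so few counts that its size was not resolved. Jak3, the gene that spans Insl3, had 21 counts in the old section against 7 in the young one.

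Of the 12586 genes with at least 20 counts in 1 section, 25.4% were at least 1.5-fold lower in the old section. The 3 of the 4 genes that passed this count minimum, all but Insl3, were among them. At least 5-fold lower were 4.03% of genes, again including those 3. At least 20-fold lower were 0.961%, and Cyp17a1 and Cyp19a1 were among these. The median ratio over all tested genes was 0.988. In the old section no bead carried more than 1 count of Cyp17a1, Cyp19a1 or Insl3, and 3 of 60 Hsd17b1 beads carried 2. In the young section up to 6 counts of Cyp17a1, 6 of Cyp19a1 and 8 of Hsd17b1 lay on 1 bead, while each of the 17 Insl3 beads carried 1.

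**Figure D1:**
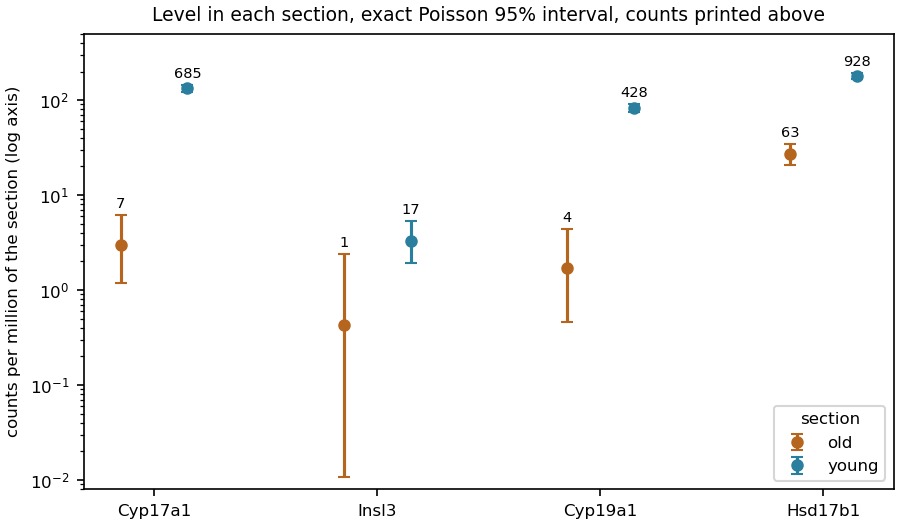
Level of each gene in the old (left of each pair) and young (right) section, as CPM on a log axis, with exact Poisson 95% intervals and the count above each point. The old point lies below the young one for all 4 genes, at 2.98 against 132.8 CPM for Cyp17a1 and 26.8 against 179.9 CPM for Hsd17b1.

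The positions of the 4 genes were set against a granulosa area that was drawn without them. The area is made of beads whose 30 nearest beads held at least 2 times the young section's share (0.592%) of the 12 granulosa markers. No bead of the old section met this threshold, and its highest local share was 1.47 times the young section's. In the young section the area took in 1895 beads with 12.5% of all counts, a few of them stray beads beside the tissue. Its marker counts came mostly from the activin and inhibin subunit genes Inhba (8439 of 18806) and Inha (3840) and from the follistatin gene Fst (3195). Amh, a hormone gene of small growing follicles, had none of its 15 counts there. Kctd14 had only 104 of 3618 (2.87%) there, at 161 CPM inside against 1130 CPM in the first 2.5 spacings outside, and it gave 725 of the 2889 granulosa-list counts of the old section. The area therefore covers granulosa tissue rich in Inhba and not all granulosa tissue. Distances are given in spacings, where 1 spacing is the median gap between a counted bead and its nearest counted neighbour. The neighbourhood of 30 beads had a median radius of 3.94 spacings, so finer position is not resolved.

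Cyp17a1 formed a rim around the granulosa area. Within 2.5 spacings outside the area it stood at 792 CPM (646 to 960), and at 2.5 to 5 spacings at 291 CPM (216 to 382). It stood at 135 CPM from 5 to 10 spacings, 113 CPM from 10 to 20 and 93.8 CPM (82.9 to 105.8) beyond 20. The rim of 0 to 5 spacings exceeded tissue beyond 10 spacings by 5.11-fold (4.21 to 6.18), at 504 against 98.6 CPM, and exceeded the area itself by 3.25-fold (2.51 to 4.22). Cyp17a1 was not confined to the rim, since 54.3% of its young counts lay beyond 10 spacings. Between the area and all other tissue it did not differ beyond counting error, at 155 against 129.6 CPM (ratio 1.20, 0.958 to 1.48), and this ratio moved to either side of 1 with how the area was drawn. The 7 theca markers without the 4 genes, with Aldh1a1 and the luteinizing hormone receptor gene Lhcgr among them, were not uniform. Together they stood at 12146 CPM in the first 2.5 spacings, 6505 CPM at 5 to 10 and 9130 CPM beyond 20. Aldh1a1 alone gave 9309 CPM in the first 2.5 spacings and 7048 CPM beyond 20. In the same 2 zones Lhcgr stood at 615 and 153 CPM, and Mgarp at 2022 and 1828 CPM. Smooth muscle and endothelium markers were also high in the first 2.5 spacings, at 2860 against 1061 CPM and 377 against 236 CPM beyond 20. Their part in the Cyp17a1 rim was not tested.

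Insl3 was spread thinly over the young section. Only 1 of its 17 counts lay in the granulosa area, 2 lay in the rim and 12 lay beyond 20 spacings. The rim could not be told from tissue beyond 10 spacings at this depth (ratio 1.90, 0.208 to 8.39). Insl3 beads lay close to Cyp17a1 beads: 13 of 17 (76.5%) were within 5 spacings of one, against 49.6% of all counted beads. Cyp17a1 stood at 457 CPM (168 to 995) on the Insl3 beads themselves and at 446 CPM (276 to 681) within 2.5 spacings, against 113 CPM beyond 20. Insl3 beads were also deep, with a median of 480 counts against 153 for all beads, and the part of depth in this nearness was not tested.

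Cyp19a1 was concentrated in the granulosa area. The area held 389 of its 428 young counts, or 90.9%, at 603 CPM (545 to 666) against 8.64 CPM in all other tissue, a ratio of 69.8 (50.1 to 99.7). In the rim it dropped to 16.4 CPM, 0.0271 times the area's level (0.00876 to 0.0639). The rim could not be told from tissue beyond 10 spacings (16.4 against 6.10 CPM, ratio 2.68, 0.797 to 7.22). It was resolved above that tissue under 4 other outlines, at thresholds of 1.5 times (4.25, 1.77 to 9.61) and 3 times (9.34, 4.999 to 17.0), with 15 neighbours (6.52, 3.09 to 13.3) and without Inhba in the list (9.28, 5.09 to 17.1). Aromatase counts and Cyp17a1 counts thus occupied adjoining zones, with the granulosa step inside and the theca step around it.

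Hsd17b1 shared the granulosa area but extended beyond it. The area held 543 of 928 counts, or 58.5%, at 842 CPM (773 to 916) against 85.3 CPM elsewhere, a ratio of 9.87 (8.65 to 11.3). The interval lay wholly below that of Cyp19a1. Its level was 208 CPM within 2.5 spacings of the area, 154 CPM at 2.5 to 5, 149 CPM at 5 to 10 and 71.0 CPM beyond 20. The rim over far-tissue ratio was 2.51 (1.83 to 3.37). It was not resolved from 1 on beads of at least 200 counts (1.17, 0.695 to 1.87), with 60 neighbours (1.35, 0.859 to 2.03) or without the quadrant of low x and high y (1.87, 0.797 to 3.77).

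**Figure D2:**
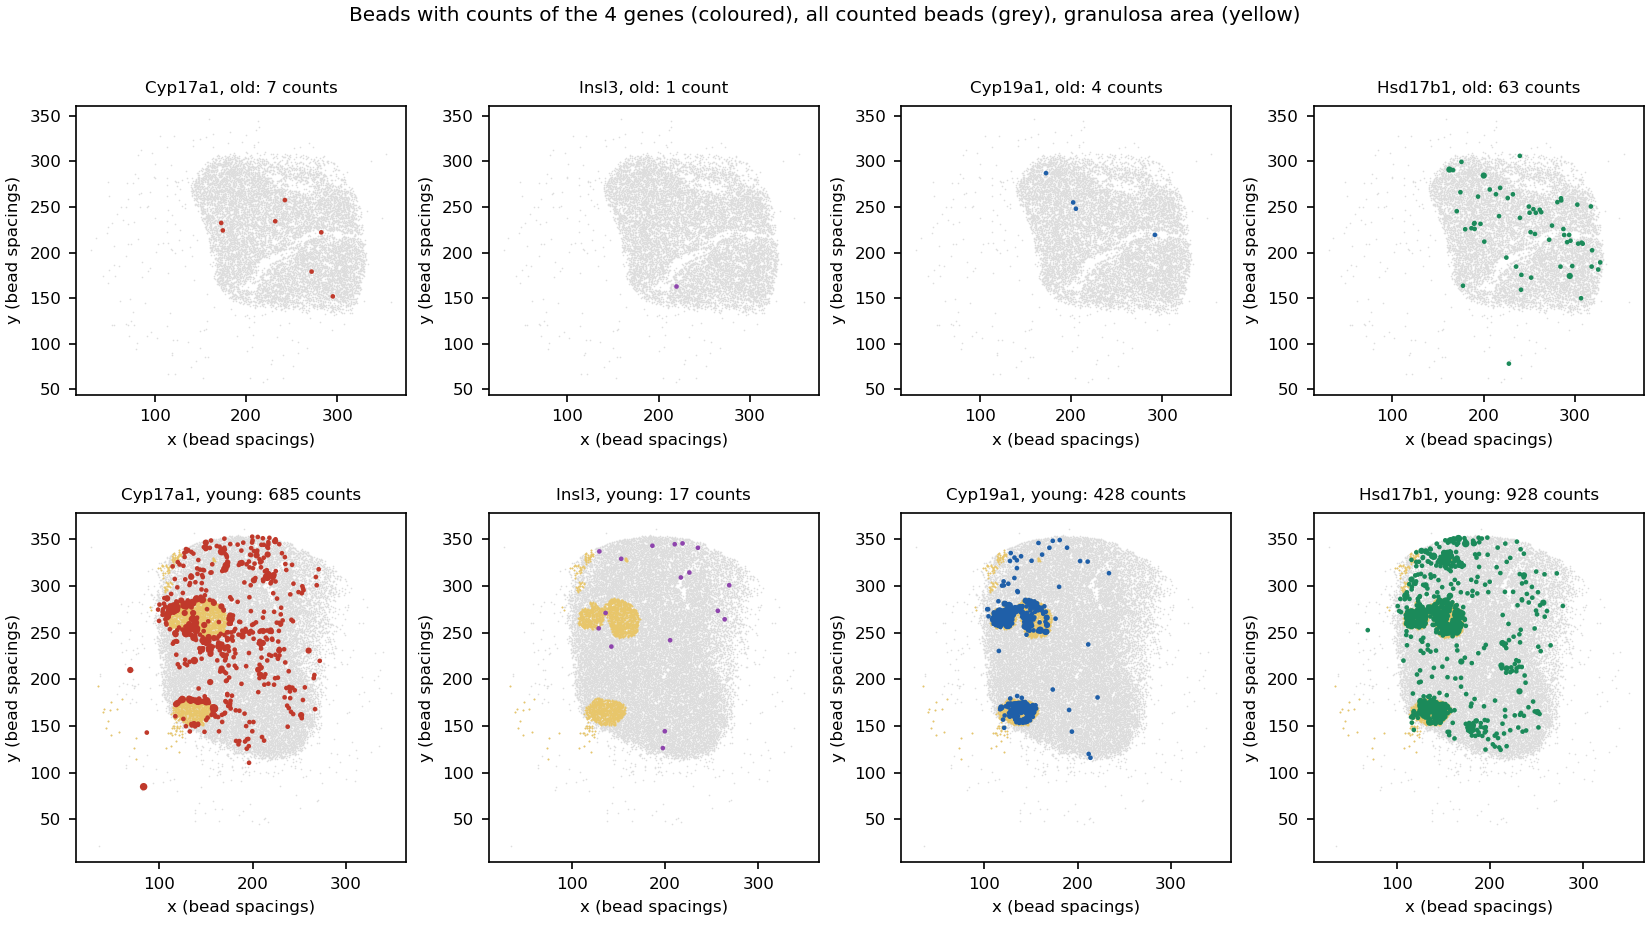
Maps of the old (upper row) and young (lower row) sections, with x and y in bead spacings; grey points are counted beads, yellow points the granulosa area, and coloured points beads with at least 1 count of the named gene, larger for more counts. In the young section Cyp19a1 fills 3 bodies on the left side, Hsd17b1 fills them and lies elsewhere too, Cyp17a1 surrounds them, and the old section has few beads with a count and no granulosa area.

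At a threshold of 3 times the section's share the area resolved into 3 compact cores, called here the upper left (298 beads), the upper right (609 beads) and the lower core (497 beads). Together they held 10.3% of the young counts but 86.2% of Cyp19a1, 55.1% of Hsd17b1 and 5.84% of Cyp17a1. Cyp19a1 stood at 823 CPM (700 to 961) more than 5 spacings inside the edge, at 741 CPM from 5 to 2.5 spacings inside and at 467 CPM (363 to 591) in the outermost 2.5. Just outside the edge it stood at 112 CPM (61.2 to 188). Hsd17b1 followed the same course, at 1071, 1009, 758 and 232 CPM in those 4 zones.

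Cyp17a1 ran the opposite way across the same edge. It stood at 25.9 CPM (8.40 to 60.4) in the deepest zone, 15.8 CPM at 2.5 to 5 spacings inside and 216 CPM (148 to 306) in the outermost 2.5, against 776 CPM (629 to 946) just outside. Further out it was at 600, 325 and 153 CPM in the next steps of 2.5 spacings. These levels pool the 3 cores. At 0 to 2.5 and 2.5 to 5 spacings Cyp17a1 was at 1145 and 764 CPM around the upper left core. Around the lower core it was at 1029 and 387 CPM. Around the upper right core it was at 328 CPM (191 to 525) and 605 CPM (424 to 837), so the step next to the edge was not the highest there. Lhcgr, the receptor that drives the theca step, was high on both sides of the edge, at 758 CPM (624 to 912) just inside and 720 CPM (579 to 885) just outside. It stood at 331 CPM in the deepest zone and at 160 CPM beyond 20 spacings. Beads of the deepest zone averaged 414 counts, against 222 beyond 20 spacings.

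**Figure D3:**
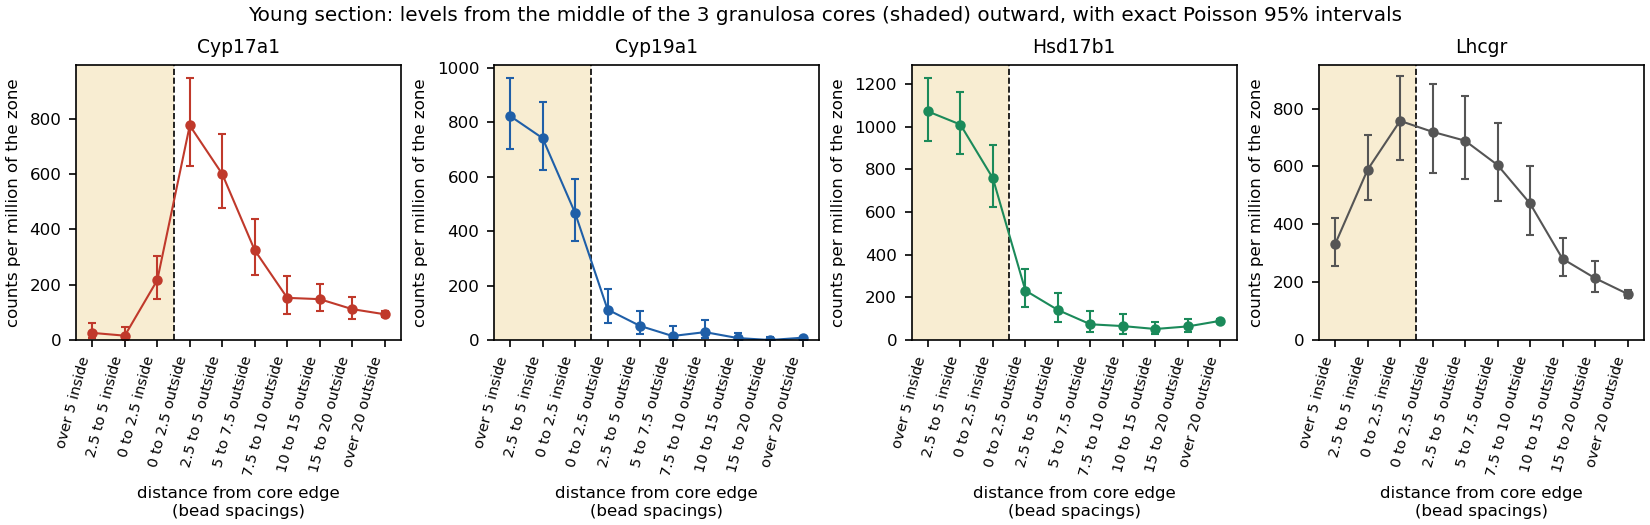
Levels in the young section, as CPM of each zone, from more than 5 bead spacings inside the edge of the 3 granulosa cores (shaded) to more than 20 spacings outside, with exact Poisson 95% intervals. Cyp19a1 and Hsd17b1 fall across the edge (467 inside to 112 outside and 758 to 232 CPM). Pooled over the 3 cores, Cyp17a1 is highest just outside the edge at 776 CPM, and Lhcgr is high on both sides.

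The 3 cores differed in Cyp19a1 but not measurably in Hsd17b1. Cyp19a1 stood at 1104 CPM (936 to 1294) in the upper left core, at 710 CPM (589 to 849) in the lower and at 429 CPM (347 to 524) in the upper right. The upper left exceeded the upper right by 2.57-fold (1.98 to 3.36) and the lower by 1.55-fold (1.22 to 1.99), and the lower exceeded the upper right by 1.66-fold (1.26 to 2.19). Hsd17b1 stood at 1039, 965 and 912 CPM in the same order, with an upper left over upper right ratio of 1.14 (0.915 to 1.42). The luteinizing hormone receptor gene Lhcgr stood at 938 CPM in the upper left core, 408 CPM in the lower and 398 CPM in the upper right. Grem1, which encodes a BMP antagonist made by granulosa cells under oocyte signals, stood at 1112, 817 and 299 CPM in that order. Inhba differed little between cores, at 14861, 15083 and 14407 CPM. Inhba and Grem1 belong to the list that drew the cores, so their levels there are not independent of the outline. In the rim of 0 to 5 spacings around each core, Cyp17a1 stood at 951 CPM (752 to 1187) around the upper left core, 706 CPM (518 to 938) around the lower and 476 CPM (357 to 623) around the upper right. These rims exceeded their own cores by 7.75-fold (4.54 to 14.0), 9.93-fold (5.19 to 20.6) and 9.68-fold (5.00 to 20.6). The cores are places in 1 section and not replicates of a condition.

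**Figure D4:**
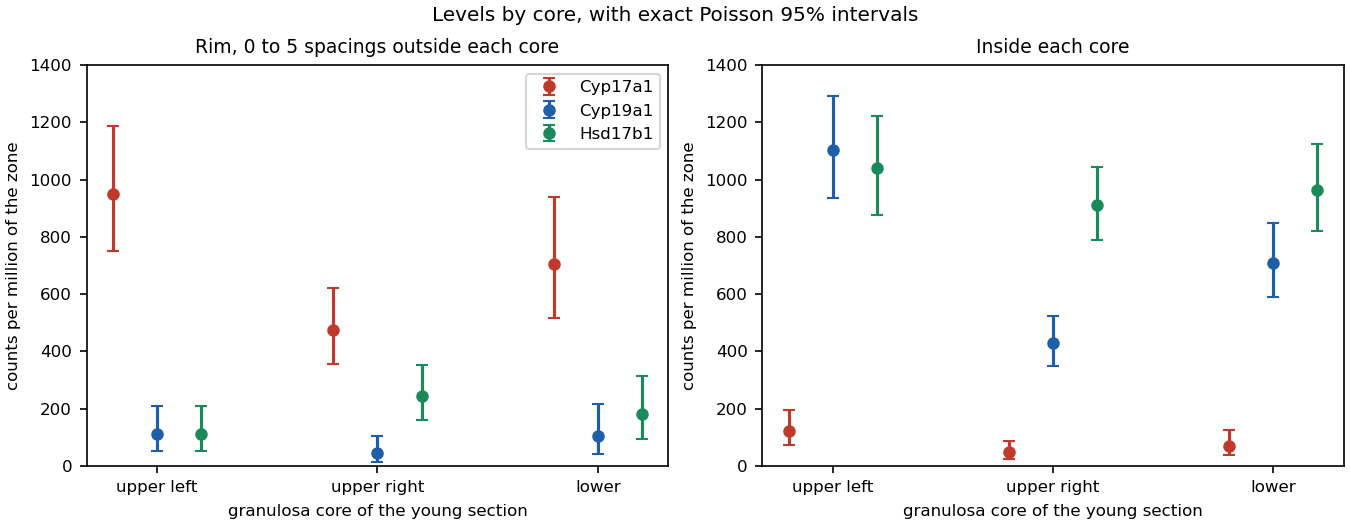
Levels in the rim of 0 to 5 bead spacings around each of the 3 granulosa cores of the young section (left panel) and inside each core (right panel), as CPM with exact Poisson 95% intervals. In every core Cyp17a1 is higher in the rim than inside, and Cyp19a1 inside the cores runs from 1104 CPM in the upper left to 429 CPM in the upper right.

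On single beads Cyp19a1 went with Hsd17b1. Of the 311 beads with Cyp19a1, 122 (39.2%) also carried Hsd17b1, which was 15.9% of the 769 Hsd17b1 beads. Hsd17b1 was on 3.59% of all counted young beads. There were 9 beads with both Cyp19a1 and Cyp17a1, which was 2.89% of Cyp19a1 beads and 1.61% of the 559 Cyp17a1 beads. Over all counted young beads, 2.61% carried Cyp17a1 and 1.45% carried Cyp19a1. The shared beads were near these shares. The shares take no account of bead depth, so by themselves they do not decide whether the 2 genes were separated. On Cyp19a1 beads Hsd17b1 stood at 969 CPM (832 to 1123), against 239 CPM at 2.5 to 5 spacings from them. Cyp17a1 stood at 87.1 CPM (49.8 to 142) on the same beads and at 265 CPM (225 to 310) at 2.5 to 5 spacings. The median distance of a Cyp19a1 bead was 0.999 spacings to the nearest Hsd17b1 bead and 4.32 spacings to the nearest Cyp17a1 bead. Over all counted beads these medians were 5.12 and 5.03 spacings. Beads with Cyp19a1 or Hsd17b1 were deep, with medians of 505 and 493 counts against 153 for all beads.

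Outside the area, Hsd17b1 also lay in weaker granulosa patches, some of which had little Cyp19a1. These were groups of at least 30 linked beads at or above the young section's own marker share and more than 2.5 spacings from the area. The largest patch, of 132 beads, came within 2.64 spacings of the area. It had 29 counts of Hsd17b1 at 300.0 CPM (201 to 431). This was 4.43 times (2.91 to 6.52) the level in tissue beyond 10 spacings that lay outside the patches. It had 1 count each of Cyp19a1 and Cyp17a1. A patch of 83 beads, 23.8 spacings from the area at its nearest, had 13 counts of Hsd17b1 at 395 CPM (210 to 675) and 0 of Cyp19a1 and Cyp17a1. The upper 95% limit of a count of 0 in that patch was 112 CPM, below the level of Cyp19a1 in each of the 3 cores described above. The other 6 patches had 31 to 44 beads and 0 to 5 Hsd17b1 counts each. Among them, the patches of 44 and 38 beads did hold Cyp19a1, with 3 counts each. These made 281 CPM (58.0 to 822) and 476 CPM (98.2 to 1391), and both patches lay within 3 spacings of the area.

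Oocyte-rich places of the young section were low in Cyp17a1. The young section held 12 oocyte foci, groups of beads where the 18 oocyte markers made up at least 1% of local counts, and 9 of them lay over 10 spacings from the granulosa area. Leaving out the area and its rim, Cyp17a1 stood at 23.8 CPM (12.7 to 40.8) in the foci, 36.6 CPM within 2.5 spacings, 117 CPM (79.9 to 165) at 2.5 to 5 and 136 CPM (118 to 156) beyond 20. Cyp19a1 had 4 counts in these foci (7.33 CPM) and 2 within 2.5 spacings. Hsd17b1 stood at 49.5 CPM (32.6 to 72.0) in the foci and 67.9 CPM (36.2 to 116) within 2.5 spacings, against 70.1 CPM beyond 20, intervals that overlap. A low level in the foci was not particular to Cyp17a1. Inhba stood at 64.2 CPM in the foci, 136 CPM within 2.5 spacings and 242 CPM beyond 20, and Inha at 491, 783 and 693 CPM. The part of oocyte RNA in lowering the CPM of other genes on these beads was not tested. In the wider set of the 20% of beads outside the area and its rim with the highest local oocyte share, Cyp17a1 stood at 56.4 against 119 CPM in the other beads (ratio 0.475, 0.357 to 0.623). Cyp19a1 was higher there, at 16.4 against 5.15 CPM (3.18, 1.53 to 6.67), and Hsd17b1 was level, at 78.2 against 78.8 CPM (0.992, 0.767 to 1.27).

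In the remaining young tissue, outside the area and its rim, Cyp17a1 went with theca markers and not with luteal ones. In the 20% of beads with the highest local theca share it stood at 230 against 77.9 CPM in the other beads (ratio 2.95, 2.41 to 3.60). In the 20% highest for luteal markers it stood at 30.4 against 119 CPM (0.256, 0.162 to 0.386). Hsd17b1 was higher in the 20% highest for granulosa markers, at 160 against 49.7 CPM (3.22, 2.58 to 4.02), and lower in the theca-rich 20%, at 28.0 against 88.4 CPM (0.316, 0.188 to 0.502). Only 34 Cyp19a1 counts lay in this tissue, 18 of them in the granulosa-rich 20% (ratio 3.15, 1.52 to 6.60) and likewise 18 in the oocyte-rich 20%, sets that can share beads. The theca list is mostly Aldh1a1, with 32140 of its 43066 young counts. Ranked by the other 6 theca markers, chosen after seeing the data, the top 20% of beads had Cyp17a1 at 221 against 80.2 CPM (2.76, 2.24 to 3.38).

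Counts of the 4 genes in the old section were few. The 63 Hsd17b1 counts were divided over the 4 quadrants of the old section as 4, 21, 23 and 15, and in the 20% of beads highest for granulosa markers Hsd17b1 stood at 37.5 against 23.5 CPM, a ratio of 1.60 (0.897 to 2.75) that was not resolved from 1. In the young section the quadrants of low x, which hold the cores, had 239 and 562 Hsd17b1 counts, against 69 and 58 in those of high x. At the young section's own marker share or above lay 101 old beads, and these had 4 Hsd17b1 counts and 1 Cyp19a1 count. The old section had 2 oocyte foci, with 1 count each of Cyp19a1 and Hsd17b1 and 0 of Cyp17a1. Of the 7 old Cyp17a1 counts, 2 lay in the theca-rich 20% of beads, 0 in the luteal-rich 20% and 4 in the oocyte-rich 20% (ratio to the other beads 6.99, 1.18 to 47.7). That oocyte-rich set took in 2056 beads, while 491 of the 716 old oocyte-list counts lay on the 43 beads of the foci. By distance from the foci, 6 of the 7 Cyp17a1 counts lay beyond 20 spacings and 0 within 5. The 6.99 ratio therefore does not place Cyp17a1 near oocytes. Of the 4 old Cyp19a1 counts, 3 lay in the luteal-rich 20% (13.2, 1.06 to 692). With 3 counts against 1 in the other beads, this ratio does not place Cyp19a1 in luteal tissue.

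The ratios between sections were also taken with parts of the young section left out. Without the 3 cores, the old over young ratio of Cyp19a1 was 0.134 (0.0352 to 0.360), that of Hsd17b1 0.298 (0.225 to 0.389) and that of Cyp17a1 0.0214 (0.00856 to 0.0443). Leaving out tissue where Cyp19a1 and Hsd17b1 were concentrated had to raise their ratios. Set against young tissue beyond 10 spacings from the granulosa area, the old over young ratio of Cyp19a1 was 0.279 (0.0702 to 0.817) in place of 0.0205, and that of Hsd17b1 was 0.380 (0.284 to 0.502) in place of 0.149. The ratio of Cyp17a1 stayed at 0.0302 (0.0121 to 0.0629), with 2.98 CPM in the old section against 98.6 CPM in that tissue. In the 20% of beads highest for theca markers in each section, Cyp17a1 stood at 5.86 CPM in the old against 258 CPM in the young section, a ratio of 0.0227 (0.00273 to 0.0831). Aldh1a1 gave 32140 of the 43066 theca-list counts in the young section but 1650 of 5846 in the old. The 2 sets of beads were thus picked by different mixes of genes and are not matched tissue. Lhcgr ran the other way, at 327 CPM in the old section against 173 CPM in young tissue beyond 10 spacings (1.89, 1.70 to 2.10). The granulosa area and its rim, left out here, had young Lhcgr at 557 and 579 CPM, so this ratio too had to rise. Over the whole sections it was 1.28 (1.17 to 1.39).

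Genes with the most similar distribution were sought over 348 square bins of 10 spacings of the young section, among 5313 genes. These correlations of log levels are descriptions; bins share 1 library and differ in depth. For Cyp17a1 the closest were Lhcgr (Pearson r = 0.518), the fatty acid desaturase gene Fads2 (0.501), the retinaldehyde dehydrogenase gene Aldh1a1 (0.434), Gas6, which encodes a ligand of TAM receptor kinases (0.423), and the acyl-CoA synthetase gene Acsbg1 (0.395). For Cyp19a1 they were Nppc, which encodes the C-type natriuretic peptide of granulosa cells (0.784), Inhba (0.784), the complement lectin pathway protease gene Masp1 (0.780), the anion exchanger gene Slc26a7 (0.771) and the activin subunit gene Inhbb (0.756). For Hsd17b1 they were Nap1l5 (0.707), Inhba (0.694), Cyp19a1 itself (0.683), Inhbb (0.669) and Nppc (0.653). Insl3 had too few counts to be ranked.

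The rest of the steroid pathway was not uniformly lower in the old section. Of 36 listed genes, 32 had at least 20 counts in 1 section; 9 were at least 1.5-fold higher and 8 at least that much lower, or 28.1% and 25%, near the 22.6% and 25.4% of all tested genes. The median ratio of the list was 1.10. Cholesterol supply genes were higher in 2 of 3 cases. Star, which carries cholesterol into mitochondria, stood at 1333 CPM in the old section against 179 CPM in the young (7.44, 6.91 to 8.01), and the high density lipoprotein receptor gene Scarb1 at 801 against 257 CPM (3.12). Tspo had a ratio of 1.46.

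The early enzymes did not pass 1.5-fold lower either. Cyp11a1, which makes pregnenolone from cholesterol, stood at 8895 CPM in the old section against 4116 CPM in the young (2.16, 2.12 to 2.20), and Hsd3b1, which makes progesterone from pregnenolone, at 10901 against 11696 CPM (0.932, 0.918 to 0.946), slightly lower beyond counting error. Among the electron carriers that these enzymes need, the mitochondrial pair Fdxr and Fdx1 had ratios of 3.52 and 2.32. Cyb5a, the cytochrome b5 known to favour the lyase step of Cyp17a1, had a ratio of 0.462 (0.430 to 0.497), and Por, the reductase of Cyp17a1 and Cyp19a1, 1.10. Of 10 measured other steroid enzymes, 3 were higher and 2 lower (30% and 20%, against 22.6% and 25.4% of all tested genes). Hsd17b7, known in rodents for making oestradiol in the corpus luteum and for cholesterol synthesis, stood at 529 against 41.7 CPM (12.7, 10.97 to 14.7). Hsd17b2, which inactivates oestradiol, had a ratio of 2.496. The lower ones were the androgen reductase genes Akr1c14 (0.472) and Srd5a1 (0.604).

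Receptors were lower or not past 1.5-fold: 3 of 6 measured were lower and 0 higher, where 25.4% and 22.6% of all tested genes were. The oestrogen receptor gene Esr2 stood at 14.5 CPM in the old section against 71.9 CPM in the young (0.201, 0.137 to 0.286), the follicle-stimulating hormone receptor gene Fshr at 2.98 against 10.9 CPM (0.275, 0.106 to 0.604) and Igf1r at 133 against 233 CPM (0.570). Lhcgr had a ratio of 1.28 (1.17 to 1.39). Of 9 transcription factor genes, Runx2 (4.69) and Cebpb (2.41) were higher and Gata4 (0.388) and Nr5a1 (0.598, 0.493 to 0.721) lower. Nr5a2, a relative of Nr5a1 that is known in granulosa and luteal cells, had a ratio of 1.48.

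**Figure D5:**
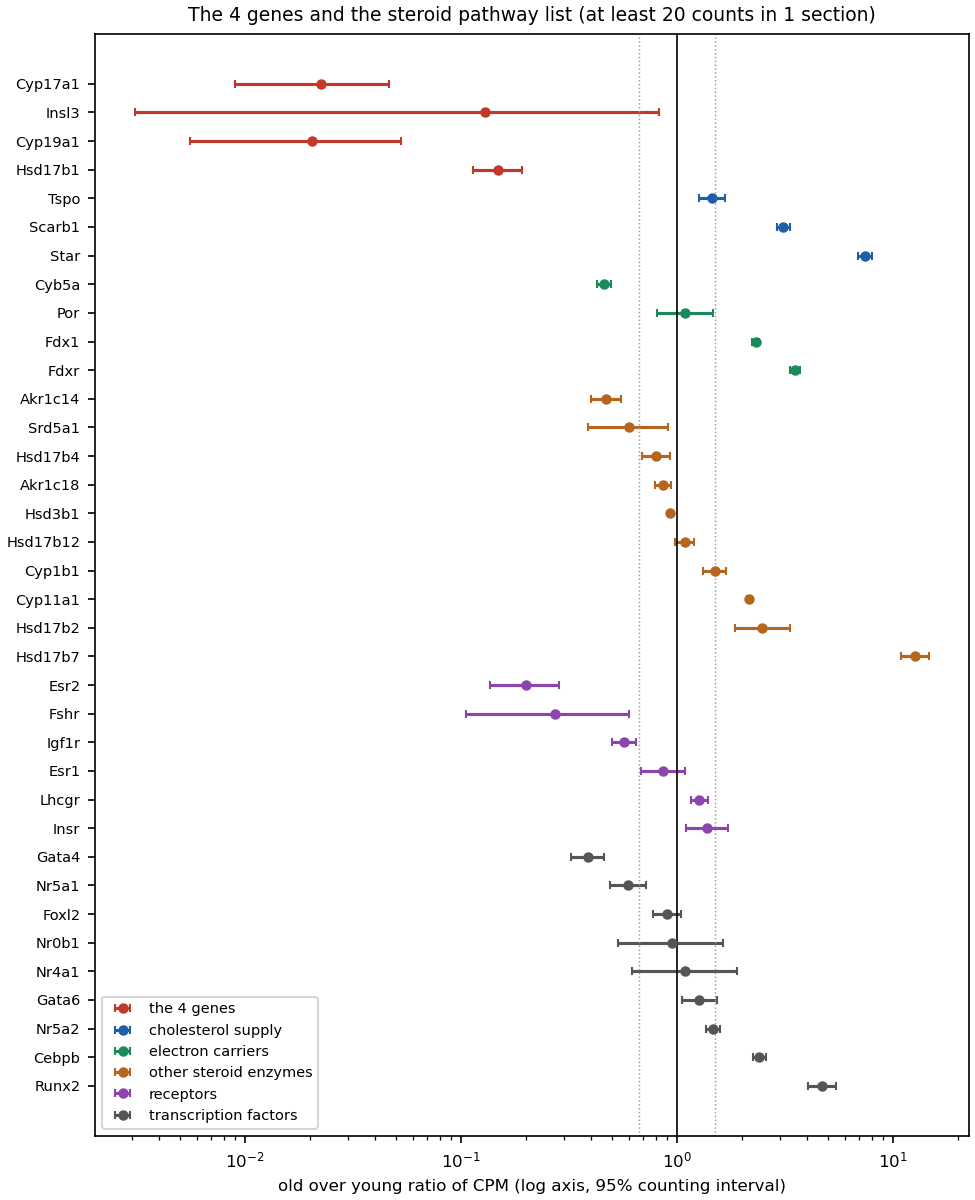
Old over young ratio of CPM on a log axis for the 4 genes (top) and the 32 measured genes of the steroid pathway list by role, with 95% counting intervals; dotted lines mark 1.5-fold either way. The 4 genes lie at 0.149 or below, while Star at 7.44 and Hsd17b7 at 12.7 lie on the other side.

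The 32 measured pathway genes were not all placed alike in the young section. Between the granulosa area and other tissue, the counting interval lay above 1 for 11 genes, below 1 for 13 and held 1 for 8. Between the rim and tissue beyond 10 spacings it lay above 1 for 11, below 1 for 1 and held 1 for 20. These numbers were not set against all genes, so they do not show a placement particular to the pathway. Cebpb, for example, had ratios of 0.919 (0.780 to 1.08) and 1.06 (0.848 to 1.31). Nr5a2 stood at 1253 CPM in the granulosa area against 177 CPM elsewhere (7.06, 6.39 to 7.79), Fshr at 32.6 against 7.75 CPM (4.20, 2.32 to 7.42), Cyb5a at 2109 against 643 CPM (3.28) and Gata4 at 400.0 against 142 CPM (2.81). Star at 55.8 against 197 CPM (0.283, 0.197 to 0.395) and Cyp11a1 at 2157 against 4396 CPM (0.491, 0.464 to 0.518) were lower in the area. Hsd3b1 was higher there, at 19879 against 10527 CPM (1.89). The rim exceeded tissue beyond 10 spacings in Lhcgr by 3.35-fold (2.82 to 3.96), in Hsd17b7 by 2.83-fold (1.83 to 4.23), in Scarb1 by 2.28-fold (1.91 to 2.71), in Nr5a1 by 1.66-fold (1.20 to 2.25) and in Cyp11a1 by 1.38-fold (1.31 to 1.45).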

How the data were processed

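Slide-seq counts of 1 old and 1 young ovary section were used. The authors deposited whole-number counts per gene and bead, not normalized, and a table of bead positions without a stated length unit. The genome build named is mm10, per the submitters' processing notes. Which aligner, counter and annotation were used, and whether molecules or reads were counted, is not given in the sources used here. Count tables hold beads with at least 10 counts, and all were kept. Counts were summed per section or zone and scaled to CPM. Levels carry exact Poisson and ratios exact conditional binomial (Clopper-Pearson) intervals at 95%, for counting error only. With 1 library per age no p-value was computed.

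The 4 genes and all gene lists were chosen with earlier results of these data known. Named genes were the 4 genes, up to 3 highest and 3 lowest pathway genes per role, and the 5 genes most like each of the 4 genes with at least 100 counts; other pathway genes were named afterwards for their place in the pathway. Of the pathway list, 2 genes are not reported here and were left out of its counts. Bins for likeness had at least 2000 counts and genes at least 200. Cores, patches, oocyte foci and the comparisons without the cores or with young tissue beyond 10 spacings were added after seeing the data. Cores link area beads within 1.5 spacings; foci were found over 15 neighbours and joined within 3 spacings, with at least 10 beads. Promoter windows came from RefSeq, GRCm38.p6. The ratio calculation was tested on simulated Poisson counts for 12401 genes, where intervals held the true ratio for 95.7%. The intervals assume Poisson counts, so this checks the calculation only. It does not cover variation between beads, sections or animals. Python 3.11.15, numpy 2.4.6, scipy 1.17.1, pandas 2.3.3 and matplotlib 3.10.9 were used. Alternatives are described at the end.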

Additional observations from a re-analysis of the deposited data

How the results depend on the processing

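The old over young ratio stayed below 1 for all 4 genes in the alternatives run: 200 counts per bead, beads over tissue by an Otsu threshold, totals that leave out mitochondrial, ribosomal protein and haemoglobin genes, trimmed-mean scaling (factor 1.04), equal weight per bin, each quadrant left out, and, both chosen after seeing the data, the young section without the 3 cores and young tissue beyond 10 spacings from the granulosa area. It ranged from 0.00939 to 0.0302 for Cyp17a1, 0.00682 to 0.279 for Cyp19a1, 0.0858 to 0.380 for Hsd17b1 and 0 to 0.305 for Insl3, which had 0 counts left once the low x, low y quadrant of the old section was left out. The Insl3 interval reached past 1 over Otsu beads (upper limit 2.28), without the old quadrants of low x and high y (1.10) or high x and low y (1.31), and without the young quadrant of high x and high y (1.64). Hsd17b1 moved to 0.0858 over Otsu beads, to 0.226 without the young quadrant of low x and high y, which holds 2 of the cores, to 0.298 without the cores and to 0.380 against far young tissue; in these last 2 Cyp19a1 moved to 0.134 and 0.279. The area over other tissue ratio of Cyp17a1 was 1.60 and 0.531 at thresholds of 1.5 and 3 times, 0.786 and 1.84 with 15 and 60 neighbours, 0.867 without Inhba in the list and 1.51 on beads of at least 200 counts, so its direction depends on the outline. For Cyp19a1 it was 49.6 without Inhba and 134 without the young quadrant of low x and high y, and for Hsd17b1 12.9 without that quadrant. The rim over far ratio of Cyp17a1 was 3.15 and 7.08 at thresholds of 1.5 and 3 times, 3.54 without Inhba and 7.01 at 200 counts. For Cyp19a1 it was 9.34 at 3 times and 9.28 without Inhba; the cause was not tested. For Hsd17b1 it was 1.35 with 60 neighbours, 4.12 without Inhba and 1.17 at 200 counts. Without the young quadrant of low x and high y both ratios of Insl3 were 0, on 1 and 2 counts. Of the 5 genes most like Hsd17b1, 3 were shared with bins of 5 spacings. Of the pathway list, 5 genes were at least 2-fold lower, against 8 at 1.5-fold. No paired analysis was possible because the groups share no replicate number and each has 1 library. Depth limits Insl3 and all old positions: 3 counts amount to 1.28 CPM in the old section and 0.582 CPM in the young.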

Other observations

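Surface epithelium markers, among them keratin genes, also went with the granulosa-step genes in young tissue outside the granulosa area and its rim. In the 20% of beads with the highest local share of these markers Cyp19a1 stood at 23.2 CPM against 4.66 CPM in the other beads, a ratio of 4.97 (2.39 to 10.4) on 18 and 16 counts. Hsd17b1 stood at 135 against 65.9 CPM (2.05, 1.61 to 2.60). In the 20% of beads highest for smooth muscle markers Cyp17a1 stood at 165 against 91.9 CPM (1.80, 1.42 to 2.25), and in the 20% highest for endothelium markers at 158 against 93.2 CPM (1.70, 1.34 to 2.14). In the old section Hsd17b1 was lower in the 20% richest in surface epithelium markers, at 7.29 against 29.4 CPM (0.248, 0.0293 to 0.934) on 2 and 61 counts. A bead can belong to several of these sets.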
